A study of Mus musculus with 192 samples.

Results

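The mimics of miR-99a-5p and miR-100-5p, a pair of miRs with the same seed, were compared with a scrambled mimic in E14 mouse embryonic stem cells (mESCs). The RNA of 5 libraries was used, 3 of the miR-99a-5p mimic (batches 1, 2 and 3) and 2 of the miR-100-5p mimic (batches 1 and 2), out of 48 mimic transfection libraries and 192 samples in the series. They were chosen by their labels alone and set against 3 libraries of the scrambled mimic, 1 per batch, with 3 libraries of cells that received no mimic as a second reference. The batch 3 library of miR-100-5p was left out, as the methods of the study do; it held 6257538 counts and 7035 genes above 0.

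E14 is a feeder-free line derived from a mouse blastocyst, labelled wild-type and kept with LIF and the 2i inhibitors of MEK and GSK3, which hold mESCs in the naive state, with serum added for the transfection. All 3 transfected groups (miR-99a-5p, miR-100-5p and scrambled) received a synthetic double-stranded miR precursor by lipid transfection for 24 h, labelled 100 nM. By the methods of the study, this is the concentration in the transfection mix before it was added to the medium. None received retinoic acid (RA), the agent used in the differentiation part of the series. The scrambled precursor is a commercial negative control. Cells were fixed with paraformaldehyde before RNA extraction, and mRNA was sequenced in pairs with a stranded kit. The labels number the batches, and the study describes them as biological replicates. For the mimics, the p-values below rest on the spread within groups over 23 fitted mimic libraries. These include other mimics and cells with no mimic, so the spread is not that of the compared libraries alone. The 23 libraries come from the same set, whose library names share a suffix. The 24 mimic libraries without that suffix form a further set and were not fitted.

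A miR is loaded into an Argonaute protein, which it guides to mRNAs that pair with its seed, bases 2 to 8. The best matches lie in the 3' UTR, where pairing lowers translation and speeds decay of the mRNA. The miR-99/100 family is ancient, and in mammals its best known targets include Mtor, the kinase of the mTOR complexes, and the chromatin remodellers Smarca5 and Smarcd1. A mimic raises the level of one miR far above its natural range, and its direct targets are looked for among the mRNAs that decrease.

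The mature sequences show what the mimics share and where they differ (RefSeq, GRCm38.p6, seed in capitals). miR-99a-5p lies at chr16:77598940-77598961 (+) and miR-100-5p at chr9:41531437-41531458 (+).
miR-99a-5p: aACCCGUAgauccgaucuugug
miR-100-5p: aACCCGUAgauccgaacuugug
Both have 22 bases and 1 difference, U16A, counted from the 5′ end of miR-99a-5p, outside the seed. The table of mature miRs holds 1 further mouse miR with this seed, miR-99b-5p. Before RA, in 4 small RNA libraries of the same series, miR-99a-5p stood at 5.09, 8.81, 6.00 and 9.66 counts scaled to library size (CPM) and miR-100-5p at 4.07, 11.2, 8.21 and 16.2 CPM. miR-99b-5p stood at 2563, 4953, 4936 and 7359 CPM in the same libraries, so before transfection the seed was present mostly through miR-99b-5p.

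The match to the seed was read from the longest annotated 3' UTR of each gene. An 8mer is TACGGGTA, a 7mer-m8 is TACGGGT, a 7mer-A1 is ACGGGTA and a 6mer is ACGGGT, and each gene was counted under its longest match only. The sites of mRNAs that fell with the mimics, and that of Cdk7, the gene the study predicts as a target, are printed as the 22 bases of mRNA that face the miR, sense strand, 5′ to 3′ (GRCm38.p6), with the match in capitals.
Baz2a, chr10:128128267-128128288 (+): ctcccatcagaaatTACGGGTA
Baz2a, chr10:128127350-128127371 (+): gtaaaactatcgtgTACGGGTt
Cox15, chr19:43736218-43736239 (-): atatgccatgtgtgTACGGGTg
Cox15, chr19:43736143-43736164 (-): tttaatatgcctgaTACGGGTg
Trim71, chr9:114508236-114508257 (-): tttaaaactggtgtTACGGGTc
Trim71, chr9:114509914-114509935 (-): tgcggtgagcgactgACGGGTA
Minpp1, chr19:32514560-32514581 (+): ttaggatctagacaTACGGGTA
Atpaf1, chr4:115811774-115811795 (+): gtaactcagtgaatTACGGGTA
Kbtbd8, chr6:95127284-95127305 (+): gactttcttttaacTACGGGTA
Ago2, chr15:73106133-73106154 (-): aagtttctaaagaaTACGGGTc
Mtor, chr4:148557135-148557156 (+): gggtaactgagaaaTACGGGTt
Smarcd1, chr15:99713246-99713267 (+): caggcctgaaatcaaACGGGTA
Cdk7, chr13:100703340-100703361 (-): aaaatatgtaaaacTACGGGTt
Baz2a, Cox15 and Trim71 each hold a pair of matches of 7 or 8 bases in the 3' UTR, and the others shown hold 1. Of the 12257 genes tested, 290 (2.37%) hold an 8mer, 7mer-m8 or 7mer-A1, and 832 (6.79%) hold these or a 6mer. A match is a run of letters, and binding was not measured.

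The 5 mimic libraries held 8695716 to 13086760 counts and 15899 to 18015 genes above 0, and the 3 scrambled libraries held 10295309 to 19956820 counts and 15330 to 19091 genes. The fewest genes among these 8 were seen in scrambled batch 2 (15330) and miR-99a-5p batch 3 (15899). The markers of naive mESCs were all measured, and their summed level was 6949 to 7326 CPM with the mimics against 6361 to 7072 CPM with scrambled, so markers of the labelled cell type were present in each library. Of markers of other cells, 6 of 10 of neuroectoderm and 7 of 14 of primitive endoderm were measured too, at summed levels given with the marker lists, while Pax6, Neurog2 and Zic1, of neuroectoderm, and Gata4, Sox17, Sox7, Foxa2 and Pdgfra, of primitive endoderm, were below the filter on low counts.

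With both mimics together, 65 genes fell and 74 rose against scrambled, out of 12257 genes with a mean count above 20 (1.13% in all, 0.53% lower and 0.604% higher, edgeR quasi-likelihood test with batch as block, adjusted p under 0.05). An unadjusted p under 0.05 was reached by 1283 genes (10.5%), 659 lower (5.38%) and 624 higher (5.09%). The falls were small and even, with a median log2 fold change of -0.48 and a range of -0.97 to -0.22, and none reached 2-fold. The rises had a median of 0.44 and a range of 0.24 to 7.16, and 10 exceeded 2-fold. The 5 mimic libraries lay wholly below the 3 scrambled libraries in 51 of the 65 falls, and wholly above in 52 of the 74 rises, where 1.98% and 2.13% of all genes did so. The genes were called from these same libraries, so this describes the calls and adds no support to them. The count depended on the libraries used: without scrambled batch 1, scrambled batch 3 or miR-100-5p batch 2 it was 74, 78 or 85, and without the 2 libraries of fewest genes 81 (47 higher and 34 lower).

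Baz2a, the large subunit of a complex that silences ribosomal RNA genes, gave the lowest p of all genes. Its level was 383, 343 and 348 CPM with miR-99a-5p (batches 1, 2 and 3) and 365 and 313 CPM with miR-100-5p (batches 1 and 2), against 664, 608 and 639 CPM with scrambled. The groups were far apart, and Baz2a fell to 54.6% of scrambled (log2 fold change -0.87 ± 0.07 SE, adjusted p = 7.4e-09). Its longer site is an 8mer, and a further match lies upstream of it (both printed above).

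Cox15, an enzyme of haem A synthesis for cytochrome c oxidase, showed the largest fall. It had 31.5, 24.2 and 18.7 CPM with miR-99a-5p and 31.0 and 28.6 CPM with miR-100-5p, against 51.7, 49.3 and 54.4 CPM with scrambled. All 5 mimic values were lower than all 3 scrambled values, and the fold change was -0.97 ± 0.12 on the log2 scale (adjusted p = 1.1e-05). Trim71, an RNA-binding protein of the ubiquitin ligase family that is itself known as a target of let-7, had 166, 214 and 227 CPM with miR-99a-5p and 179 and 215 CPM with miR-100-5p, against 289, 334 and 391 CPM with scrambled. It was lower in each batch and did not overlap (-0.75 ± 0.07, adjusted p = 9.7e-08).

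Zdhhc18, a protein palmitoyltransferase, fell as far with a 6mer only in its annotated 3' UTR. It had 51.8, 40.3 and 37.8 CPM with miR-99a-5p and 54.2 and 40.9 CPM with miR-100-5p, against 96.6, 79.2 and 71.3 CPM with scrambled (-0.91 ± 0.08, adjusted p = 4e-08). Batch 1 was highest in all 3 groups, and within each batch the mimics were below scrambled. Pik3cd, the delta catalytic subunit of PI3-kinase, also with a 6mer, had 24.3, 19.2 and 28.6 CPM with miR-99a-5p and 21.9 and 20.8 CPM with miR-100-5p, against 42.1, 38.0 and 44.0 CPM with scrambled (-0.83 ± 0.13, adjusted p = 0.0005). Ezh1, a methyltransferase of histone H3 lysine 27, held a 6mer as well and fell by 0.73 on the log2 scale (adjusted p = 0.00017).

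The next falls by p among genes with a match of 7 or 8 bases were in genes of varied function. Serinc1, a membrane protein, had 37.6, 31.3 and 41.1 CPM with miR-99a-5p and 31.0 and 36.5 CPM with miR-100-5p, against 55.2, 57.2 and 63.0 CPM with scrambled (-0.70 ± 0.08). Minpp1, an inositol polyphosphate phosphatase, had 30.8, 24.95 and 30.4 CPM with miR-99a-5p and 29.8 and 29.1 CPM with miR-100-5p, against 45.5, 48.0 and 43.4 CPM with scrambled (-0.66 ± 0.10). Neither gene overlapped between mimics and scrambled. Atpaf1, which assembles the F1 part of the ATP synthase, had 34.1, 31.6 and 41.0 CPM with miR-99a-5p and 35.6 and 33.5 CPM with miR-100-5p, against 50.1, 55.3 and 59.4 CPM with scrambled (-0.63 ± 0.09). Scpep1, a serine carboxypeptidase, fell by 0.65 on the log2 scale (adjusted p = 2.7e-07), but its batches differed so much that the groups overlapped, with 164, 109 and 136 CPM for miR-99a-5p and 186 and 110 CPM for miR-100-5p, against 271, 181 and 208 CPM for scrambled. Clns1a, a chaperone of the spliceosomal snRNP proteins, fell by 0.53 (adjusted p = 0.00099).

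Eif4ebp2, a repressor of cap-dependent translation that mTOR inactivates, fell evenly across the libraries. It had 286, 295 and 271 CPM with miR-99a-5p and 286 and 286 CPM with miR-100-5p, against 411, 394 and 381 CPM with scrambled (-0.49 ± 0.05, adjusted p = 1.1e-06). Its 3' UTR holds a 7mer-A1.

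The other genes named by size of fall were less secure. Wscd2 (-0.84, adjusted p = 0.036), Zfp523 (-0.76, adjusted p = 0.047) and Gm11427 (-0.71, adjusted p = 0.047) each lost the call when single libraries were left out. Wscd2 and Zfp523 have no match in the annotated 3' UTR, and Gm11427 has no annotated 3' UTR. Of the 41 called genes followed through each omission of 1 of the 8 libraries, 24 stayed called each time, among them Baz2a, Cox15, Trim71, Zdhhc18, Pik3cd, Serinc1, Minpp1, Scpep1, Atpaf1, Smarcd1, Eif4ebp2 and Ago2.

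**Figure D1:**
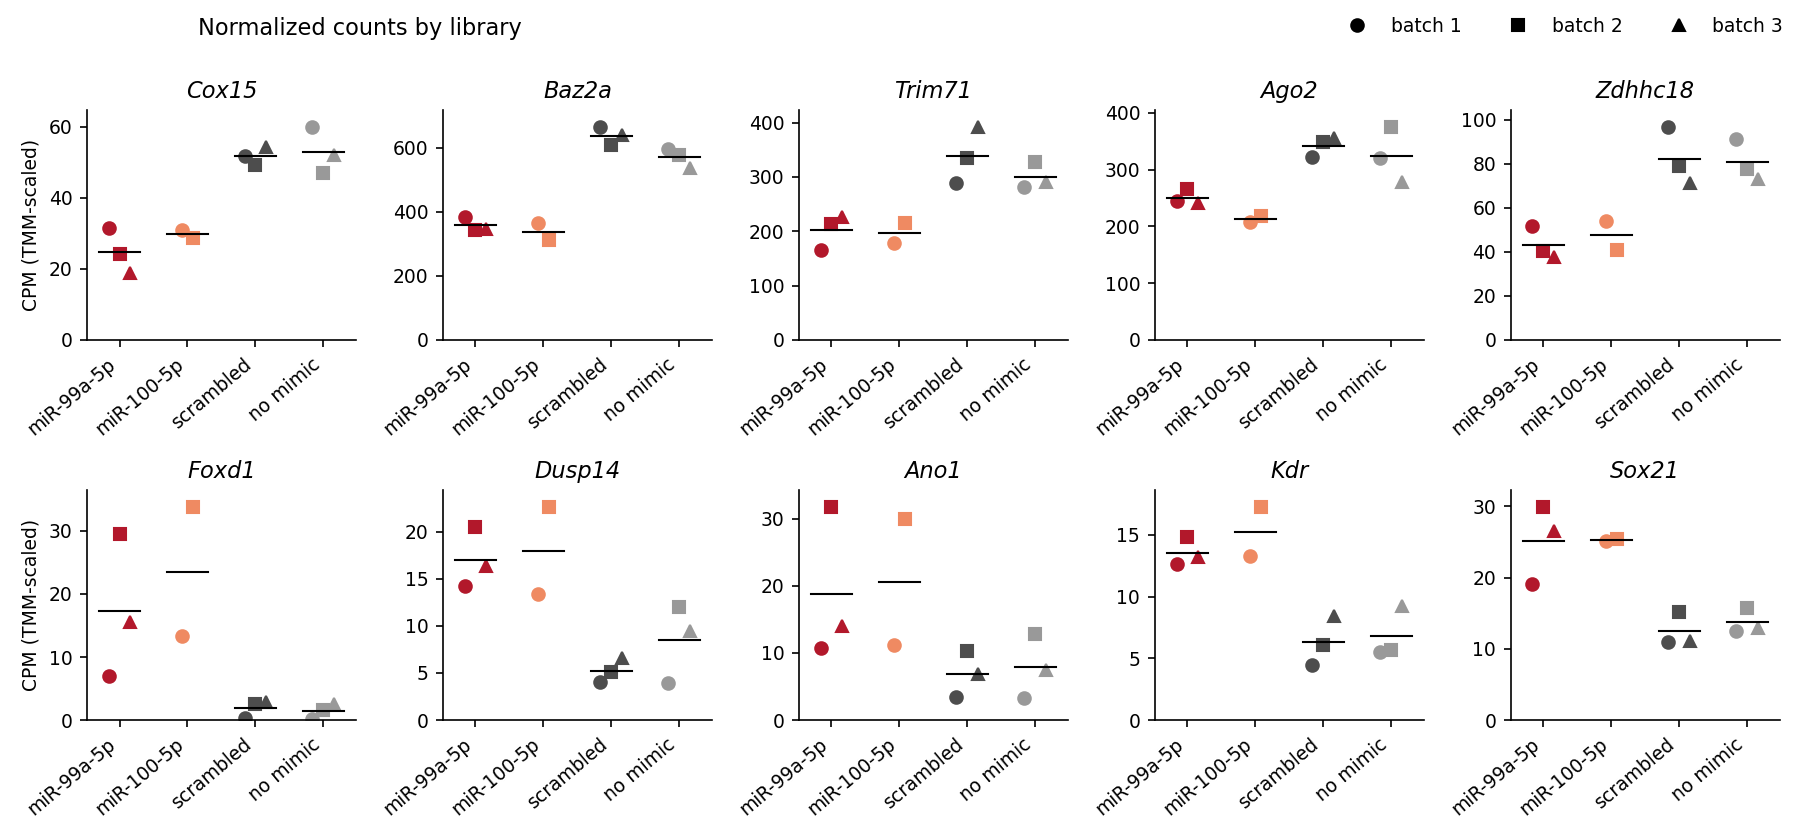
Normalized counts (CPM, TMM-scaled, linear axis from 0) of 5 genes that fell (top row) and 5 that rose (bottom row), with the miR-99a-5p mimic, the miR-100-5p mimic, scrambled and no mimic. Each point is 1 library, its shape gives the batch and the bar is the group mean; the mimic libraries of Baz2a sit between 313 and 383 CPM, all below the scrambled libraries at 608 to 664 CPM.

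The largest rise by the naming rule was Foxd1, a forkhead transcription factor that was low in these cells otherwise. It had 7.02, 29.6 and 15.5 CPM with miR-99a-5p and 13.3 and 33.7 CPM with miR-100-5p, against 0.404, 2.57 and 2.79 CPM with scrambled. Every mimic library was above every scrambled library, with batch 2 highest for both mimics (log2 fold change 3.69 ± 0.47, adjusted p = 2.5e-05). In cells without a mimic it had 0.176, 1.56 and 2.51 CPM, and against these the rise was 4.13 on the log2 scale.

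Dusp14, a phosphatase of MAP kinases, had 14.2, 20.5 and 16.4 CPM with miR-99a-5p and 13.3 and 22.6 CPM with miR-100-5p, against 4.09, 5.05 and 6.64 CPM with scrambled (1.72 ± 0.24, adjusted p = 0.00017). Ano1, a calcium-activated chloride channel, had 10.7, 31.7 and 14.0 CPM with miR-99a-5p and 11.2 and 29.9 CPM with miR-100-5p, against 3.38, 10.3 and 6.86 CPM with scrambled (1.501 ± 0.23, adjusted p = 0.00031). Both rose in each batch without overlap. Kdr, the receptor VEGFR2, had 12.6, 14.8 and 13.2 CPM with miR-99a-5p and 13.3 and 17.2 CPM with miR-100-5p, against 4.45, 6.04 and 8.45 CPM with scrambled (1.23 ± 0.22), although its adjusted p of 0.0027 became 0.056 without scrambled batch 1. Sox21, an HMG-box transcription factor, had 19.1, 29.9 and 26.6 CPM with miR-99a-5p and 25.2 and 25.5 CPM with miR-100-5p, against 10.96, 15.2 and 11.2 CPM with scrambled (1.00 ± 0.18, adjusted p = 0.0027). None of these 5 genes has a seed match in the annotated 3' UTR.

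The other rises named by size were Cited4, a partner of CBP and p300 (1.14 ± 0.19), the ubiquitin ligases Rnf128 (0.83 ± 0.16) and Rnf13 (0.77 ± 0.16), the deubiquitinase Cyld (0.81 ± 0.12) and Slc27a2, an enzyme of fatty acid uptake (0.71 ± 0.16, adjusted p = 0.021). Slc27a2 lost the call in 4 of 8 omissions of 1 library (adjusted p up to 0.14), and Rnf128 and Rnf13 without scrambled batch 2 (adjusted p = 0.0501 and 0.11). A still larger value, 7.16 for Pagr1a, fell outside the naming rule, and it was chosen for mention after its value was seen. It had 50.05 CPM in miR-99a-5p batch 3 and 6.51 CPM in miR-100-5p batch 2, against 0.0945 CPM or less in the other mimic libraries, and a near-identical copy of the gene makes its count uncertain.

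Seed matches were far more frequent among the falls than among all genes. Of the 65 genes that fell, 27 (41.5%) held an 8mer, 7mer-m8 or 7mer-A1 and 44 (67.7%) held these or a 6mer, against 2.37% and 6.79% of all genes tested. Of the 74 genes that rose, 1 held an 8mer (Glrx3, a glutaredoxin, 0.24, adjusted p = 0.036) and 1 a 6mer (Rragd). Glrx3 lost the call in 7 of 8 omissions of 1 library (adjusted p up to 0.18). Counted from the sites, 6 of 30 genes with an 8mer fell (20.0%), 13 of 141 with a 7mer-m8 (9.22%), 8 of 119 with a 7mer-A1 (6.72%), 17 of 542 with a 6mer (3.14%) and 19 of 10822 with none (0.176%). The shares run in the order of match length.

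The median log2 fold change over all genes of each kind, called or not, ran the same way. It was -0.24 for 8mers, -0.09 for 7mer-m8 matches, -0.08 for 7mer-A1 matches, -0.05 for 6mers and 0.00 for genes with none. For 8mers it was -0.23 with miR-99a-5p alone and -0.31 with miR-100-5p alone, and for 7mer-m8 matches -0.06 and -0.10. For 7mer-A1 matches it was -0.07 and -0.09, so the order of 7mer-m8 and 7mer-A1 differed between the mimics. The 4 genes with 2 matches of 7 or 8 bases had a median of -0.81, and 3 of them fell, while 286 genes with 1 match had a median of -0.09, and 24 of them fell. These are medians over genes, which are not replicates, so they carry no test.

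The length of the 3' UTR differed along with the match. Genes with a match of 7 or 8 bases had a median 3' UTR of 2453 bases, and the 2205 genes without a match whose 3' UTR was at least that long had a median of -0.02 with both mimics together, with 15 higher and 6 lower. With miR-100-5p alone these long genes stood at -0.06, against -0.11 for genes with a match, and with miR-99a-5p at 0.00, against -0.07. Sites in the coding sequence gave a smaller difference that went with the choice of reference. The 38 genes with an 8mer there and no 3' UTR match had a median of -0.08 against scrambled and -0.01 against no mimic. None was called by edgeR or DESeq2, and 3 had an unadjusted p under 0.05, where 10.5% of all genes tested did. Genes with an 8mer in the 3' UTR had a median of -0.14 against no mimic.

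**Figure D2:**
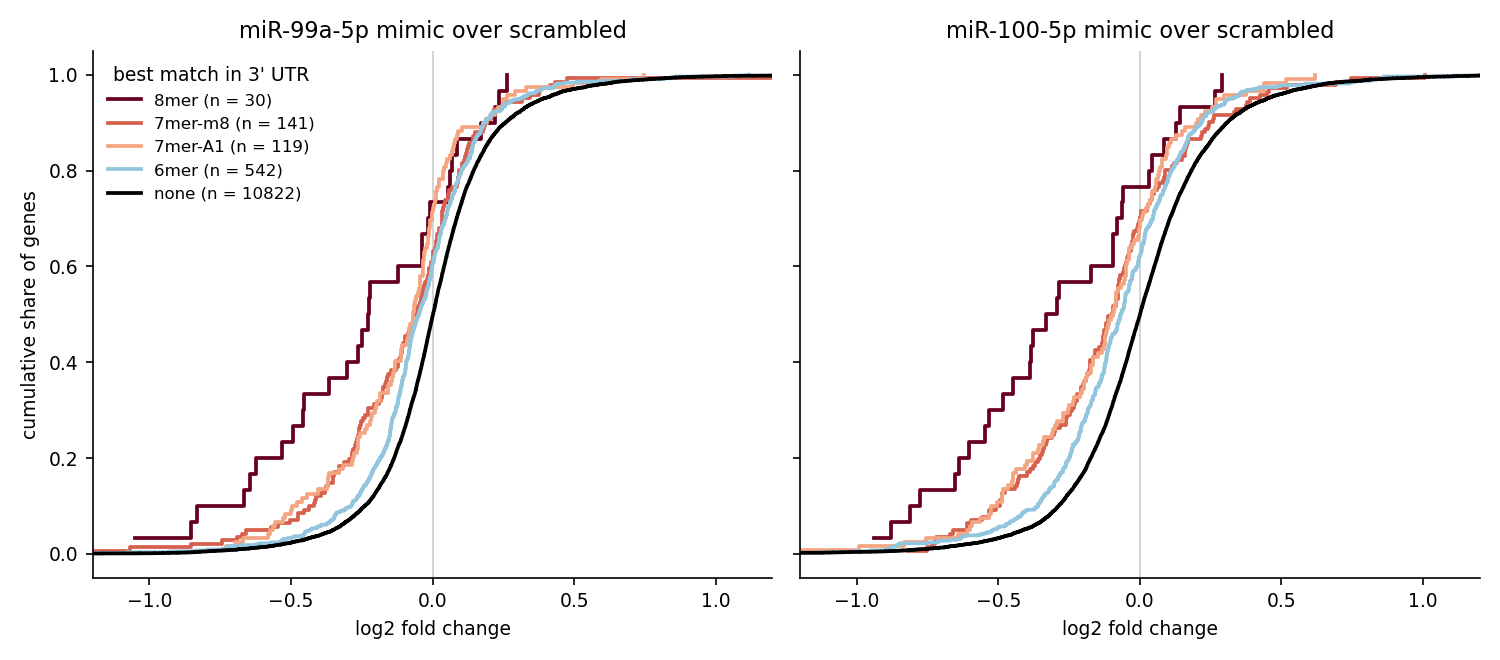
Cumulative share of genes (vertical axis) by log2 fold change over scrambled (horizontal axis, drawn from -1.2 to 1.2), for the miR-99a-5p mimic on the left and the miR-100-5p mimic on the right, 1 line for each kind of best match in the 3' UTR. The 8mer line lies farthest to the left in both panels, with medians of -0.23 and -0.31, and the line of genes without a match passes through 0.

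The same measure was taken in each library, as the median log2 difference of site genes from the mean of the libraries of its batch and set with neither mimic, less that of genes without a match. In the 5 mimic libraries it lay between -0.111 and -0.0589, and in the other 18 libraries of the same set between -0.0494 and 0.0753, so no library with another miR, scrambled or no mimic reached the range. For genes with an 8mer, the mimic libraries lay between -0.232 and -0.148 and the other 18 between -0.0756 and 0.0620. Against the scrambled library of the same batch, the values were -0.0675, -0.0946 and -0.128 for miR-99a-5p and -0.0838 and -0.124 for miR-100-5p. In 24 libraries of a further set of mimics, each taken against its own set, values ran from -0.316 (miR-1946b batch 2) to 0.0918, and those of 8mer genes from -0.134 to 0.107. The first of these ranges reaches past the 5 mimic libraries and the second does not.

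**Figure D3:**
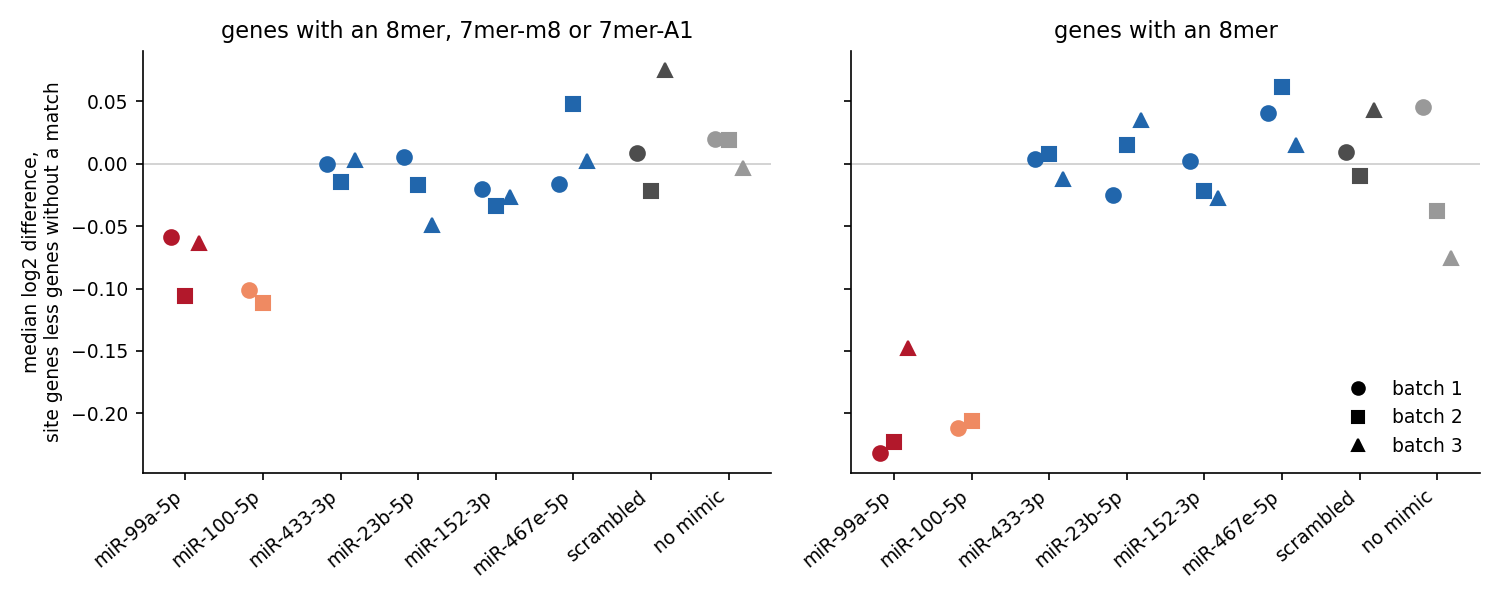
Median log2 difference of genes with a seed match, less that of genes without one, per library (vertical axis), for matches of 7 or 8 bases on the left and 8mers on the right, by the mimic transfected. Each point is 1 library with its batch as shape; the miR-99a-5p and miR-100-5p libraries lie at -0.111 to -0.0589 on the left and at -0.232 to -0.148 on the right, below all 18 other libraries in both panels.

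Next, genes named elsewhere as targets of the family were followed, with Cdk7 among them. Of 30, 26 were measured, 7 fell and none rose by edgeR (14 lower and 0 higher at an unadjusted p under 0.05, 9 called by DESeq2), where 0.53% of all genes tested fell and 5.38% were lower at an unadjusted p under 0.05. By DESeq2, 211 of all 12257 genes were called, 100 of them lower. A value below 0 was found for 23 and one above 0 for 3, with a median of -0.33 where all genes tested had a median of -0.00. 20 of the 26 hold a match of 7 or 8 bases, and of all 290 genes tested with such a match 9.31% fell, with a median of -0.09. The list was drawn up with earlier results of these data known. The summed level of the 26 was 1945 to 2199 CPM in the mimic libraries and 2449 to 2616 CPM in the scrambled libraries, without overlap. Hs3st2, Insm1, Nox4 and Trib2 were below the filter, at 3.92 CPM or less.

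Mtor itself fell. It had 132, 137 and 168 CPM with miR-99a-5p and 116 and 123 CPM with miR-100-5p, against 193, 173 and 189 CPM with scrambled, and batch 3 of miR-99a-5p came close to the lowest scrambled value (-0.45 ± 0.09, adjusted p = 0.0064, or 0.12 without scrambled batch 1). Ago2, the Argonaute that cleaves paired targets, had 244, 266 and 241 CPM with miR-99a-5p and 209 and 219 CPM with miR-100-5p, against 322, 349 and 355 CPM with scrambled. The 2 miR-100-5p values were the lowest and the groups did not overlap (-0.55 ± 0.09, adjusted p = 0.00099). Smarcd1, the BAF60A subunit of SWI/SNF, had 108, 125 and 143 CPM with miR-99a-5p and 125 and 120 CPM with miR-100-5p, against 167, 180 and 183 CPM with scrambled, again without overlap (-0.51 ± 0.08, adjusted p = 0.00028).

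The remaining falls of this list were smaller or less secure. Kbtbd8, an adaptor of a CUL3 ubiquitin ligase, had -0.63 ± 0.13 (adjusted p = 0.0077). Mtmr3, a phosphoinositide phosphatase, had -0.44 ± 0.08 (adjusted p = 0.0029), Fzd5, a Wnt receptor, -0.33 ± 0.07 (adjusted p = 0.011), and Smarca5, the SNF2H motor of ISWI complexes, -0.32 ± 0.07 (adjusted p = 0.010). Kbtbd8 and Fzd5 lost the call without scrambled batch 1 or 3, Smarca5 without scrambled batch 2 or 3 and Mtmr3 without scrambled batch 2, with adjusted p of 0.12, 0.085, 0.11 and 0.068 at the highest.

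The 19 others did not pass. Several had large values with wide errors, such as Ctdspl (-0.84 ± 0.52), Epdr1 (-0.84 ± 0.23, adjusted p = 0.081), Hs3st3b1 (-0.66 ± 0.31), Igf1r (-0.47 ± 0.16) and Zzef1 (-0.46 ± 0.13, adjusted p = 0.084). Fzd8 (-0.40), Bmpr2 (-0.34), Ppp3ca (-0.22), Fgfr3 (-0.20), Icmt (-0.20), Rptor (-0.18), Raver2 (-0.09), Tmem30a (-0.07), Fkbp5 (-0.07) and Plk1 (-0.04) were nearer to 0, and Atm (0.05) and Akt1 (0.06) were among the 3 above 0. Akt1, Fkbp5, Plk1 and Atm have no match in the annotated mouse 3' UTR.

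**Figure D4:**
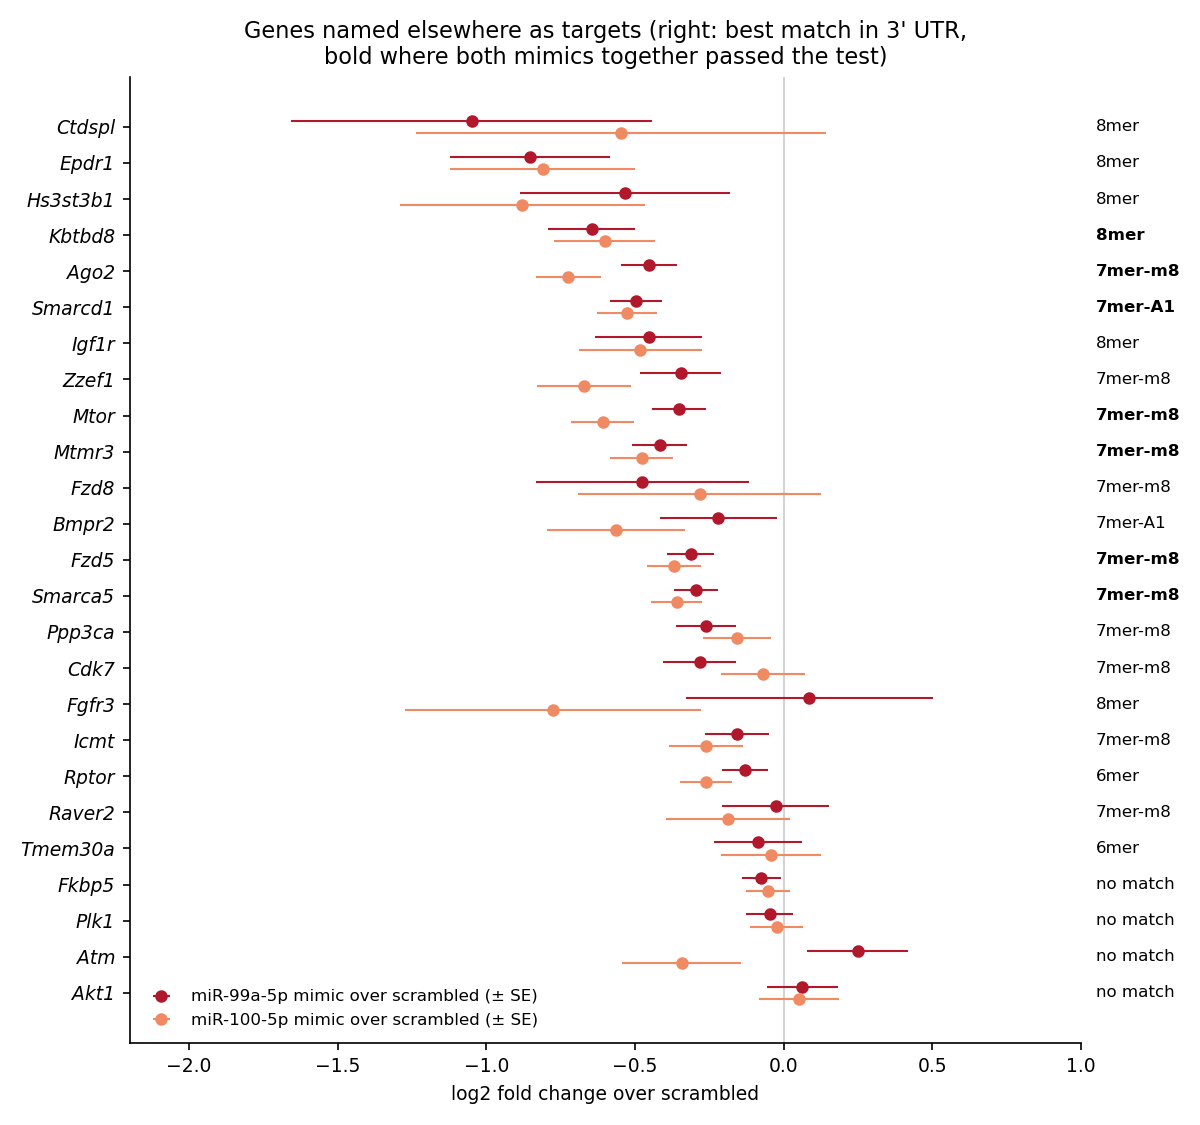
Log2 fold change over scrambled (horizontal axis, ± SE) of measured genes named elsewhere as targets, for the miR-99a-5p mimic and the miR-100-5p mimic, with the best match in the 3' UTR printed at the right, in bold where both mimics together passed the test. The 7 genes in bold lie left of 0 with both mimics, and Ctdspl, Hs3st3b1 and Fgfr3 have wide errors.

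Cdk7, the kinase of the CDK-activating complex, holds a 7mer-m8 in its 3' UTR and is the gene whose regulation by both miRs the study set out to test. It had 49.7, 50.2 and 51.0 CPM with miR-99a-5p and 58.05 and 58.5 CPM with miR-100-5p, against 57.9, 57.7 and 68.0 CPM with scrambled. The 3 miR-99a-5p libraries were below all scrambled libraries, and the 2 miR-100-5p libraries were level with the lower of them. Over all genes the change did not pass, with both mimics (-0.20 ± 0.11, unadjusted p = 0.092, adjusted p = 0.59), miR-99a-5p alone (-0.28 ± 0.12, unadjusted p = 0.031, adjusted p = 0.57) or miR-100-5p alone (-0.07 ± 0.14, adjusted p = 0.92). The study used a one-sided test without correction and reported lower Cdk7 mRNA with the miR-99a-5p mimic. In separate transfections, at a higher reagent concentration, it reported CDK7 protein strongly higher with the miR-99a-5p inhibitor and slightly lower with the mimic. Protein was not measured in the libraries used here. The difference between the mimics was -0.21 ± 0.14 (unadjusted p = 0.14), so it was not shown that they act on Cdk7 differently, nor alike. With both mimics together, none of the 10 genes of the CDK-activating kinase and TFIIH, Cdk7 among them, passed by edgeR or DESeq2 or had an unadjusted p under 0.05. Their summed level was 518 to 544 CPM with the mimics against 533 to 560 CPM with scrambled.

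In the pathways of these genes, single members passed the test, and their counts stand beside 0.53% lower and 0.604% higher over all genes tested. Of 43 measured genes of the mTOR pathway, Mtor and Eif4ebp2 fell and Rragd, a Rag GTPase that signals amino acids to mTOR, rose (0.42 ± 0.10, adjusted p = 0.022). Rragd lost the call in 3 of 8 omissions of 1 library (adjusted p up to 0.18). DESeq2 also called Pdpk1, the kinase PDK1 (0.35 by edgeR, adjusted p = 0.062). At an unadjusted p under 0.05 the pathway had 6 genes higher and 6 lower, and its median was 0.03. Over all genes tested, 5.09% were higher and 5.38% lower at that threshold. Of 25 ISWI and SWI/SNF remodellers, Baz2a, Smarcd1 and Smarca5 fell and Baz1a, a partner of Smarca5, rose (0.36 ± 0.07, adjusted p = 0.0029), with a median of -0.02 and 3 genes higher and 3 lower at an unadjusted p under 0.05. Of 13 genes of the miRNA pathway, Ago2 alone fell (median -0.02). Of 10 measured enzymes of heparan sulfate, Hs6st1, a 6-O-sulfotransferase, fell by 0.36 on the log2 scale (adjusted p = 0.0096, or 0.13 without scrambled batch 1). No gene passed by edgeR or DESeq2 among 16 of BMP signalling (median -0.03) or 11 of the glucocorticoid receptor and its chaperones (median 0.06), and 1 in each had an unadjusted p under 0.05.

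Of the 19 markers of naive pluripotency, Fgf4 and Nr0b1 rose and none fell, with a median of 0.07, where 0.604% of all genes tested rose. At an unadjusted p under 0.05, 5 were higher and 2 lower, where 5.09% of all genes tested were higher and 5.38% lower. Fgf4, the growth factor that mESCs secrete, had 260, 275 and 236 CPM with miR-99a-5p and 290 and 267 CPM with miR-100-5p, against 216, 220 and 182 CPM with scrambled (0.34 ± 0.06, adjusted p = 0.0011). Nr0b1, an orphan nuclear receptor also known as Dax1, had 179, 220 and 208 CPM with miR-99a-5p and 179 and 222 CPM with miR-100-5p, against 148, 151 and 163 CPM with scrambled (0.38 ± 0.08, adjusted p = 0.014, or 0.17 without scrambled batch 2). Both lay wholly above scrambled, yet Fgf4 was 254, 253 and 216 CPM in cells without a mimic, of which batches 1 and 2 lie within the range of the mimics. Sall4 (-0.40 ± 0.07, adjusted p = 0.0027) and Lin28a (-0.31 ± 0.08, adjusted p = 0.041), both factors of pluripotent cells outside that list and chosen after their values were seen, fell. Lin28a holds a 6mer and lost the call in 6 of 8 omissions of 1 library (adjusted p up to 0.26).

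Markers of other cells and of stress did not pass the edgeR test in any list, and DESeq2 called Sox11 (neuroectoderm) and Idi1 (cholesterol synthesis). The measured members numbered 10 for primed cells, 7 for primitive endoderm, 6 for neuroectoderm, 4 for the two-cell-like state and 3 for fibroblasts, with medians of 0.09, 0.35, 0.45, 0.06 and 0.39, and 3, 3, 3, 0 and 1 of them had an unadjusted p under 0.05, where 10.5% of all genes tested did. These were all 3 higher for primitive endoderm and for neuroectoderm, 2 higher and 1 lower for primed cells and 1 lower for fibroblasts. The summed level of neuroectoderm genes was 114 to 152 CPM with the mimics against 120 to 126 CPM with scrambled, and that of primitive endoderm genes 442 to 578 CPM against 434 to 480 CPM. Of 24 interferon response genes, which double-stranded RNA can induce, 10 were measured (median 0.06, 2 with an unadjusted p under 0.05), and the other 14, with Isg15, Ifit1 and Ifnb1 among them, stayed at 1.84 CPM or less with the mimics and 1.28 CPM or less with scrambled. The genes of the p53 response (16, median 0.02, 3 at an unadjusted p under 0.05), of ATF4 and the unfolded protein response (17, median 0.03, 2) and of cholesterol synthesis (17, median -0.04, 2) held no call by edgeR either. In such bulk RNA, more cells of a type and more RNA per cell cannot be told apart, and the part of other cells in the rises was not tested.

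Each mimic was then taken alone. With miR-99a-5p, 37 genes fell and 34 rose against scrambled (0.579% of genes tested, 0.302% lower), and with miR-100-5p, which has 1 library fewer, 31 fell and 28 rose (0.481%, 0.253% lower). The comparisons share the 3 scrambled libraries, so their values are given side by side and their likeness is not tested. Cox15 fell by 1.07 with miR-99a-5p and by 0.82 with miR-100-5p on the log2 scale, Baz2a by 0.83 and 0.94, Zdhhc18 by 0.93 and 0.88, and Trim71 by 0.74 and 0.75. Foxd1 rose by 3.34 and 4.18. Mtor passed with miR-100-5p (-0.61, adjusted p = 0.0036) and not with miR-99a-5p (-0.35, adjusted p = 0.091). The count for miR-99a-5p was 34 without its batch 1, 46 without its batch 3 and 41 without scrambled batch 3, and that for miR-100-5p 10 without either of its libraries.

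The direct comparison of the 2 mimics does not use scrambled. No gene of 12257 differed between miR-99a-5p and miR-100-5p at an adjusted p under 0.05 by edgeR or by DESeq2, and 471 (3.84%) had an unadjusted p under 0.05. Over the 65 genes that fell with both together, the difference (miR-99a-5p over miR-100-5p, log2) had a median of 0.02, quartiles of -0.04 and 0.07 and a range of -0.25 to 0.27. Over all genes tested the quartiles were -0.11 and 0.11. The falls were called with the mimics pooled, which favours genes that differ little between them, so their narrow range does not show that the mimics act alike. Over the 290 genes with a match of 7 or 8 bases the median was 0.03 and 20 (6.90%) had an unadjusted p under 0.05. For the strongest falls the difference was -0.25 ± 0.15 for Cox15, 0.11 ± 0.09 for Baz2a, 0.01 ± 0.09 for Trim71 and -0.05 ± 0.11 for Zdhhc18. The highest difference among the falls was that of Ago2 (0.27 ± 0.11, unadjusted p = 0.020), and Mtor had 0.26 ± 0.11 (unadjusted p = 0.022), both lower with miR-100-5p, with adjusted p of 1.0.

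The lowest p between the mimics was that of mt-Atp6, a mitochondrial subunit of ATP synthase, with 95.4, 153 and 143 CPM for miR-99a-5p and 253 and 259 CPM for miR-100-5p (-1.07 ± 0.19, adjusted p = 0.070). Nuclear copies of mitochondrial genes make such counts uncertain. Gm7887 (-0.82 ± 0.20), Usp34 (0.59 ± 0.15), Ankrd17 (0.32 ± 0.09) and Asf1a (-0.44 ± 0.12) followed, with adjusted p of 1.0.

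The scrambled mimic itself was set against cells without a mimic. By edgeR, 3 of 12257 genes (0.0245%) passed, all lower with scrambled, among them Serp1 (-0.56 ± 0.09) and Rap1b (-0.42 ± 0.08), and 703 had an unadjusted p under 0.05. At an adjusted p under 0.1 the count was also 3. The study left genes that differed between scrambled and no mimic, Cyld among them, out of its other comparisons, and they were kept here. Serp1 and Rap1b were among the 74 rises with the mimics over scrambled (0.53 and 0.40), and against no mimic their values were -0.03 and -0.02. For both genes the cells with the mimics and those with no mimic were level. Cyld had 33.3, 33.0 and 34.9 CPM for miR-99a-5p and 38.0 and 33.0 CPM for miR-100-5p, against 17.3, 22.6 and 19.8 CPM for scrambled, while cells without a mimic had 30.5, 34.3 and 28.8 CPM.

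Because of this, both mimics together were also set against no mimic and against 12 libraries of 4 other mimics (miR-433-3p, miR-23b-5p, miR-152-3p and miR-467e-5p). These comparisons share the 5 mimic libraries, and only the reference changes. Over the 65 falls, the median log2 fold change was -0.48 over scrambled, -0.39 over no mimic and -0.39 over the 4 other mimics, and that of scrambled over no mimic was 0.07. Over the 74 rises, the medians were 0.44, 0.28 and 0.28, and that of scrambled over no mimic was -0.17. The falls and rises were called against the scrambled libraries. Values nearer to 0 with another reference, and a scrambled level displaced from no mimic, therefore follow in part from that choice of genes. In all, 33 of the 65 falls and 16 of the 74 rises passed the test against all 3 references. Over all genes, 80 (0.653%) passed against no mimic, 0.367% lower and 0.286% higher, and 545 (4.45%) against the 4 other mimics, 1.43% lower and 3.02% higher.

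Baz2a (-0.71 over no mimic), Cox15 (-0.99), Zdhhc18 (-0.88), Trim71 (-0.58), Eif4ebp2 (-0.33), Ago2 (-0.47), Smarcd1 (-0.41) and Smarca5 (-0.37) passed against both further references, as did Foxd1 (4.13), Ano1 (1.36), Dusp14 (1.12), Kdr (1.10), Sox21 (0.85) and Rragd (0.43). Of the 41 called genes followed by library, 15 did not pass against no mimic. The rises among these were Slc27a2 (0.63), Rnf13 (0.60), Cited4 (0.48), Rnf128 (0.35), Nr0b1 (0.30, adjusted p = 0.097), Baz1a (0.24), Cyld (0.15), Glrx3 (0.15) and Fgf4 (0.11). The falls were Gm11427 (-0.73), Zfp523 (-0.33, adjusted p = 0.65), Mtor (-0.31), Hs6st1 (-0.27), Mtmr3 (-0.25) and Wscd2 (-0.25).

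**Figure D5:**
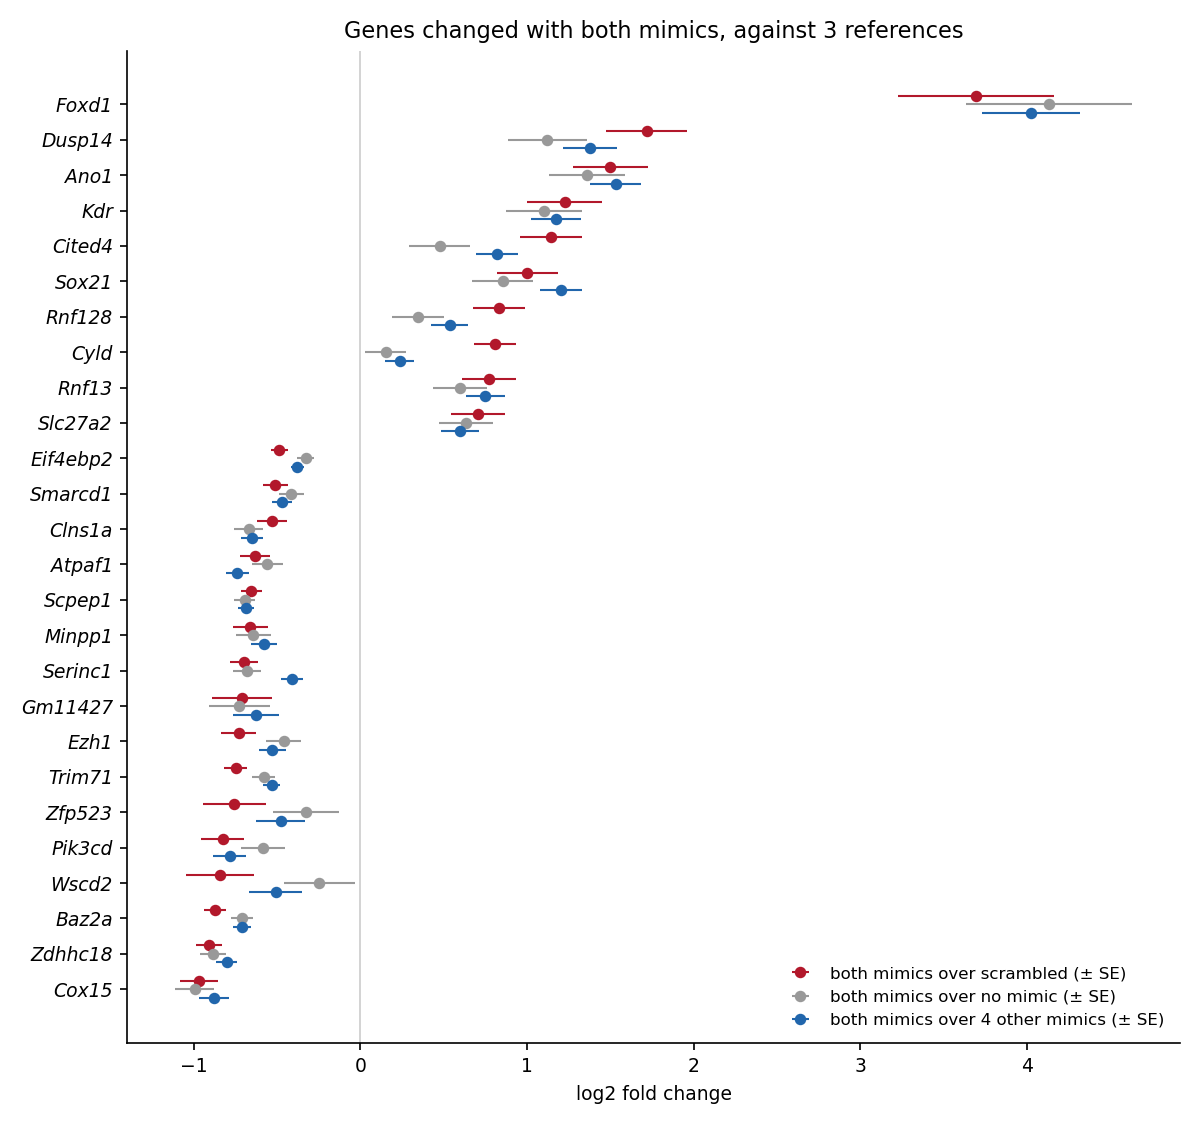
Log2 fold change (horizontal axis, ± SE) of both mimics together over scrambled, over no mimic and over 4 other mimics, for the called genes with the largest changes or with a seed match and low p. Baz2a (-0.87 over scrambled, -0.71 over no mimic) passed with each reference, and Cyld (0.81 over scrambled, 0.15 over no mimic) and Zfp523 (-0.76 over scrambled, -0.33 over no mimic) passed over scrambled alone.

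Inhibitors of the same miRs, antisense LNA oligonucleotides given to other cultures of these cells for 48 h, were meant as the opposite perturbation. In the small RNA libraries before RA, the named miRs stood at only 4.07 to 16.2 CPM, and miR-99b-5p, with the same seed, at 2563 to 7359 CPM. How far the inhibitors lowered the activity of this seed was not measured, so the values below do not show what its loss would do. Against a scrambled inhibitor, the 6 libraries of both inhibitors (3 each) gave 1 call among 13029 genes (0.00768%) by edgeR, where 1241 had an unadjusted p under 0.05 and DESeq2 gave 18 calls. All 48 inhibitor libraries were fitted together, so the spread is not that of the compared libraries alone. The gene was Chd2, a chromatin remodelling helicase, with 229, 192 and 209 CPM for the miR-99a-5p inhibitor and 191, 200 and 220 CPM for the miR-100-5p inhibitor, against 130, 159 and 162 CPM for the scrambled inhibitor (0.47 ± 0.08, adjusted p = 0.0044). It lost the call without batch 1 of the scrambled inhibitor. The genes that fell with the mimics had a median of -0.03 with the inhibitors, with 26 of 65 above 0, where all genes had a median of -0.01 and 6131 of 13029 above 0. Genes with an 8mer (34 tested) had a median of -0.05 and Cdk7 a value of 0.01 (adjusted p = 0.98).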

How the data were processed

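The data are RNA-seq of transfected E14 mESCs. The authors trimmed reads with Trimmomatic 0.38, aligned them with STAR 2.6.1a in stranded mode to mm10 and ran RSEM 1.3.1, whose expected counts they deposited unscaled. For small RNA the authors deposited read counts for each miR, scaled here to CPM by the library total. Here expected counts were rounded to whole numbers. In edgeR 4.0.16 (R 4.3.3), 23 mimic libraries of 8109096 to 19956820 counts were fitted together with batch as a block (TMM, quasi-likelihood test, mean count above 20, Benjamini-Hochberg over all genes tested), and DESeq2 1.42.0 was an alternative. The batch numbers in the labels pair the libraries, and deviations from group means correlated at 0.0397 to 0.670 (median 0.505, 7 pairs) within batches and at -0.670 to 0.246 (median -0.242, 14 pairs) between them. Deviations sum to 0 within each group, so negative values between batches arise in part by construction, and the pairs are not independent. The only pair of batch 3 gave the 0.0397. On simulated counts for both mimics against scrambled (12257 genes), 76% of 2-fold changes and 45% of changes of 0.5 on the log2 scale were recovered, and 0.0415% of unchanged genes were called. Each p is two-sided and each error beside a log2 fold change is an SE. Site positions come from GENCODE M21 on GRCm38.p6. No pair of libraries of 1 group agreed within sampling noise. The named genes were the 10 largest changes per direction with a mean count of at least 50 and 1 sign in all 5 libraries, the 3 largest per mimic, the 10 of lowest p with a seed match, the 5 of lowest p between the mimics, called members of the gene lists, all listed targets and Cdk7. Some of these are not reported here. The members, lists and tests were chosen with earlier results of these data known.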

Additional observations from a re-analysis of the deposited data

Results flagged for a closer look

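Of the 58 genes followed by library, 3 had 1 mimic library that stood apart from the other 4, by a test of gaps that chance passes in about 1 of 20 groups. Minpp1 was lowest in miR-99a-5p batch 2, at 24.95 CPM. Rnf13 was lowest in miR-99a-5p batch 3, at 18.7 CPM. Ctdspl, a scarce mRNA with an 8mer, was lowest in miR-99a-5p batch 1, at 0.611 CPM. The library of miR-100-5p batch 3, which took no part in the comparisons, had a median difference of -0.407 between genes with a match of 7 or 8 bases and genes without, farther from 0 than the 18 libraries of its set with neither mimic, and one of 0.904 for genes with an 8mer, of the opposite sign. It held 7035 genes above 0, and the part of its low content in these values was not tested.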

How the results depend on the processing

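Of 12257 genes, both mimics together had 139 calls as reported. The count was 211 with DESeq2, 209 with no filter on low counts, 28 without the batch block, 60 with only the groups compared, 4 with batch 3 of miR-100-5p kept, 80 and 545 against no mimic and 4 other mimics, 81 without the 2 libraries of fewest genes (chosen after seeing the data), and 74 to 151 with single libraries left out. For miR-99a-5p (71) the same settings gave 123, 130, 18, 34, 0 (84 at an unadjusted p under 0.05), 390 against 4 other mimics, 33 and 34 to 54. For miR-100-5p (59) they gave 125, 196, 3, 14, 4, 25 against no mimic, 117 against 4 other mimics and 10 to 70. Between the mimics (0), no filter gave 78, only the groups compared 2, and single libraries left out 0 to 1. For scrambled against no mimic (3), DESeq2 gave 15 and no filter 44, or 59 at an adjusted p under 0.1, where a mean count above 100 gave 7. Only the groups compared gave 1, and no batch block, all 47 mimic libraries, batch 3 of miR-100-5p kept and the omission of the 2 libraries gave 0, at both thresholds, with 0 to 2 for single libraries left out. For the inhibitors (1), the counts were 18 with DESeq2, 223 with no filter, 0 without the batch block, 0 with only the groups compared and 0 to 2 with single libraries left out. The cause of these shifts was not tested.

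The median difference between genes with a seed match and those without, -0.0909, stayed negative throughout, at -0.115 to -0.0726 under the settings above, -0.120 without the 2 libraries and -0.135 to -0.0663 with single libraries left out. Cdk7 was never called and kept its sign, but ranged from -0.26 against no mimic to -0.0030 with batch 3 of miR-100-5p kept. With single libraries left out it ranged from -0.254 to -0.102. None of the 41 called genes followed by library changed sign, while Serp1, called but not followed, had -0.03 against no mimic, and over all calls 69 of 74 rises and 65 of 65 falls kept their sign against no mimic and 68 and 64 against 4 other mimics. With all 47 mimic libraries the count of 131 held 97 of the 139 genes. These uncalled genes changed sign. With batch 3 of miR-100-5p kept, Akt1 had -0.23, Atm -0.25, Ppp3ca 0.30 and Fzd8 1.34. Against 4 other mimics, Rptor had 0.0713, Tmem30a 0.0183 and Fzd8 0.0896, and against no mimic Ctdspl had 0.54 and Fgfr3 0.48. Without the 2 libraries, Atm had -0.10. With single libraries left out, Akt1 ranged from -0.0073 to 0.139, Atm from -0.105 to 0.228 and Plk1 from -0.0725 to 0.0075.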
